A study of Mus musculus with 2 samples.

Results

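The genes described here are 10 mouse chemokine genes, Ccl2, Ccl5, Ccl7, Ccl20, Cxcl1, Cxcl2, Cxcl5, Cxcl12, Cxcl14 and Cx3cl1, read by every probe set whose platform annotation gave exactly 1 gene symbol and that symbol was one of these. They were represented by 14 of 22626 probe sets without array controls, and by 10 of 12393 genes with such a probe set. Of these genes, 7 had 1 probe set, 2 had 2 and 1 had 3, and 0 further probe sets carried a member's symbol among several. The set was put together around Ccl5, whose ratio between the 2 arrays was already known, so the values below are a description.

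The ATCE1-C-del array was hybridised with RNA from NIH 3T3 cells, a mouse fibroblast line, transfected with a plasmid in which the CMV promoter drives an HA-tagged ATCE1 lacking its C terminus, a form described as nuclear. The empty vector array was hybridised with RNA from NIH 3T3 cells transfected with the same plasmid backbone without insert. Both cultures received plasmid DNA with Lipofectamine and both RNAs were taken 48 hours later. ATCE1, whose gene is now named Creb3l4, is a transcription factor with a leucine zipper and a relative of CREB, and the comparison addressed which transcripts rise when it is expressed. There was 1 array per group, so no value has a replicate error, no test was made, and this number of arrays is what limits precision. The expression was transient, and no source used here gives the share of cells that took up plasmid. In RNA from a whole culture, more expressing cells and more RNA per cell cannot be told apart.

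Chemokines are small secreted proteins that guide migrating leukocytes through G protein-coupled receptors, and they are grouped by the spacing of their first cysteines into CC, CXC and CX3C types. Many are inducible: cytokines, microbial products and nucleic acids in the cytosol switch them on through NF-kB, AP-1 and interferon regulatory factors, while a few, Cxcl12 above all, are made constitutively by stromal cells. Fibroblasts are a known source of the monocyte attractants Ccl2 and Ccl7 and of Cxcl12.

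A signal was called measured when it reached the median of its own array, 77.3 units for ATCE1-C-del and 76.0 for empty vector, since MAS5 signals (the vendor's summary of matched and mismatched probes, on a linear scale) vary by large factors near background. This floor replaces a detection call, which the value table does not hold. Of the 14 chemokine probe sets, 5 were measured on both arrays, 0 on 1 array and 9 on neither. The 5 belonged to Ccl5, Ccl2, Ccl7 and Cxcl12. The other 6 genes, Ccl20, Cxcl1, Cxcl2, Cxcl5, Cxcl14 and Cx3cl1, lay near background with every probe set on both arrays.

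**Figure D1:**
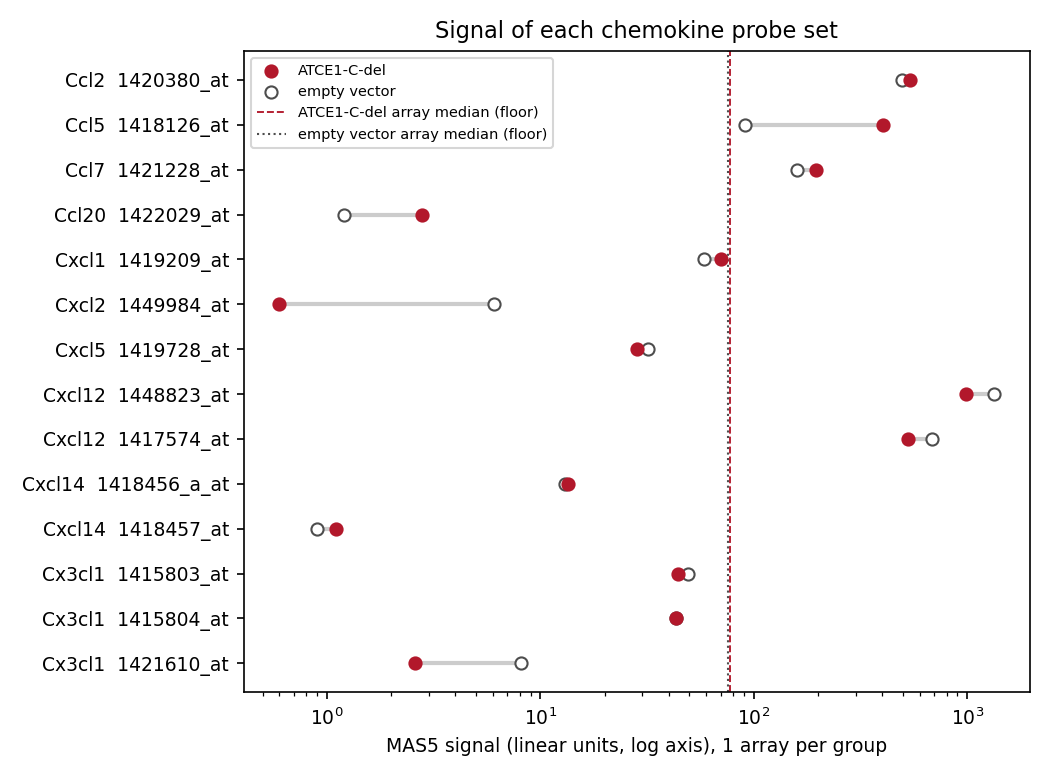
MAS5 signal of each of the 14 chemokine probe sets on the ATCE1-C-del array (filled) and the empty vector array (open), on a log axis, with each array's median as a vertical line. Ccl5 lies at 401.6 with ATCE1-C-del, against 90.6 with empty vector, just right of the lines. Cxcl12 lies lower with ATCE1-C-del on both probe sets, and 9 probe sets lie left of the lines on both arrays.

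Among the CC chemokines, Ccl5 (RANTES), which attracts T cells, monocytes and eosinophils, stood apart from the other members. Its only probe set, 1418126_at, read 401.6 signal units with ATCE1-C-del, against 90.6 with empty vector. The ATCE1-C-del signal was above 79.7% of the probe sets on its array, whereas the empty vector signal was above 52.4%, just over the floor. The ratio was 4.42-fold, a log2 ratio of 2.14. Of 4 measured chemokine genes, 1 was at least 2-fold higher, where 0.0588% of 6806 measured genes were, and 0 were at least 2-fold lower, where 0.0294% were. The 2-fold higher share stands for 4 genes, a count that was 14 on the scale of the hybridisation controls, 19 with no floor and 259 of 9949 with the floor at the 25th percentile. At 1.5-fold the same gene was the only one higher, against 0.896% of all measured genes, and 0 were lower, against 1.12%. Because Ccl5 was chosen for this ratio, these shares are given for scale only.

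Of 11631 probe sets measured on at least 1 array, 1 had a higher ratio than Ccl5, that of Tcl1b3, a gene named after its value was seen. Counted over genes, 5 ranked above Ccl5 with the floor at the 25th percentile, 101 with it at the 75th, 4 with no floor and 2 with 50 added to each signal. Without probe sets that can match several transcripts, a kind that includes the Tcl1b3 probe set, 0 did. Ccl5 was also set beside 2966 other probe sets measured on both arrays, with a mean log2 signal within 0.5 of its own. The central 95% of these probe sets had ratios between -0.53 and 0.51 in log2. In either direction, 0 were as far from 0 as Ccl5. The dimmest of them could not be as far apart, since both signals had to reach the floor. That 0 was thus partly fixed in advance. Because Ccl5 was chosen for its ratio, this count and the ranks above are for scale only. The 2 brightest probe sets of a gene, both measured on both arrays, gave an SD of 0.20 for 1 probe set's log2 ratio (2451 genes). This SD covers differences between probe sets read on the same arrays. It leaves out whatever the probe sets of a gene share on an array, and the spread between cultures and transfections. The size of the Ccl5 difference rests on the dim empty vector signal. With 50 added to each signal it was 3.21-fold, and with a floor at the 75th percentile, 308 for ATCE1-C-del and 315 for empty vector, which raises the empty vector signal to 315, it was 1.27-fold.

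**Figure D2:**
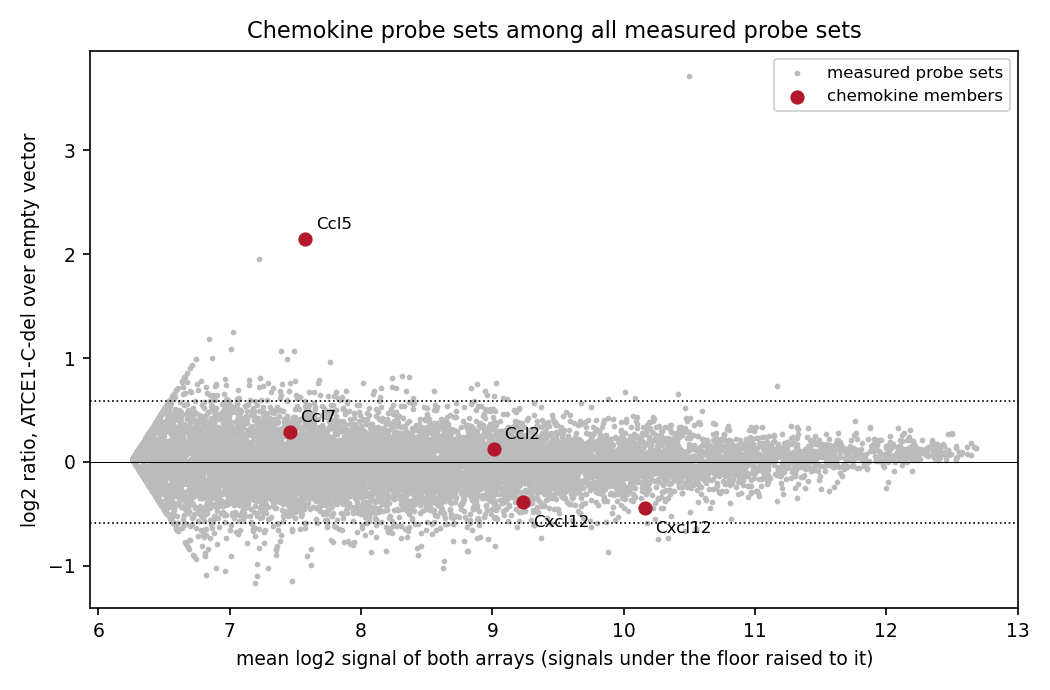
Log2 ratio between the arrays (ATCE1-C-del as numerator) against the mean log2 signal of both arrays for the 11631 measured probe sets (grey), with the 5 measured chemokine probe sets in red and 1.5-fold marked by dotted lines. Ccl5 lies at 2.14, above all but 1 of the other measured probe sets, and the other chemokine probe sets lie between -0.44 and 0.29, inside the dotted lines.

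Ccl2 (MCP-1) and Ccl7 (MCP-3), CC chemokines that recruit monocytes through the receptor Ccr2, were measured on both arrays and lay within 1.5-fold between them. Ccl2 had a signal of 538.7 with ATCE1-C-del, against 492.9 with empty vector, a 1.09-fold difference with a log2 ratio of 0.12. Ccl7 had a signal of 194.7 with ATCE1-C-del, against 159.3 with empty vector, 1.22-fold higher with a log2 ratio of 0.29. Both were above 0 and both lay well inside the range of probe sets as bright, 53.7% of which were at least as far from 0 as Ccl2 and 26.5% at least as far as Ccl7. Each was read by 1 probe set, so neither has a check from a different one.

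Ccl20, which attracts Ccr6-bearing lymphocytes and dendritic cells, was at background, at 2.8 with ATCE1-C-del, against 1.2 with empty vector. No fold is drawn from values this low.

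Among the CXC chemokines, Cxcl12 (SDF-1), the stromal ligand of Cxcr4 that retains stem cells in bone marrow, was the only measured member with the lower signal under ATCE1-C-del, on both of its probe sets. Its brighter probe set, 1448823_at, had a signal of 984.0 with ATCE1-C-del, against 1335 with empty vector, 1.36-fold lower with a log2 ratio of -0.44. Its other probe set, 1417574_at, had 525.9 with ATCE1-C-del, against 685.3 with empty vector, 1.31-fold lower with a log2 ratio of -0.39. Both probe sets went the same way, and their ratios differed by less than 0.20, the SD given above for 1 probe set's log2 ratio. Of 1348 probe sets as bright as the first, 2.6% were at least as far from 0 in either direction, and of 2190 as bright as the other, 6.94%. Neither passed 1.5-fold. Relative to the hybridisation controls, RNAs added in the laboratory, whose median log2 ratio was itself -0.25, the log2 ratio of Cxcl12 was -0.19, and all measured genes had a median of 0.24. On that scale Ccl2 stood at 0.38 and Ccl7 at 0.54.

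The ELR-type CXC chemokines Cxcl1, Cxcl2 and Cxcl5, which attract neutrophils through Cxcr2, did not reach the floor. Cxcl1 (KC) came nearest, at 70.3 with ATCE1-C-del, against 58.5 with empty vector, just outside the floor that Ccl5 on the empty vector array just passed. The Cxcl1 signal was slightly higher with ATCE1-C-del, but 37.9% of 1157 equally dim probe sets were at least as far apart. All of these lay under the floor on both arrays, so the brightest of them could not be as far apart and the share is rough. Cxcl5 (LIX) had 28.3 with ATCE1-C-del, against 32.0 with empty vector. Cxcl2 (MIP-2) had 0.6 with ATCE1-C-del, against 6.1 with empty vector, both far below the floor. In 10995 probe sets under the floor on both arrays, 32.1% differed at least 2-fold in signal, so such ratios entered no count or median and serve only to place a dim probe set among equally dim ones.

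Cxcl14, a CXC chemokine found in epithelia and stroma, had 13.5 and 1.1 on its 2 probe sets with ATCE1-C-del, and 13.1 and 0.9 with empty vector. Cx3cl1 (fractalkine), a membrane-bound chemokine that the metalloproteases Adam10 and Adam17 shed, had 44.1, 43.1 and 2.6 on its 3 probe sets with ATCE1-C-del, and 49.3, 43.3 and 8.1 with empty vector. Its 2 brighter probe sets gave similar signals on both arrays, and all 3 lay under the floor. Of the 9 chemokine probe sets near background, 4 had the higher signal with ATCE1-C-del and 5 the lower.

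Over the 4 measured genes, 3 were higher and 1 lower, where 48.0% of all measured genes were higher and 52.0% lower. On the scale of the hybridisation controls the 4 kept this split, and all measured genes divided into 86.2% higher and 13.8% lower. Their median log2 ratio was 0.20, set by few genes, beside -0.01 over all measured genes. Without Ccl5 the other 3 had a median of 0.12.

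The 250 bases before the annotated start are shown for 3 CXC genes, Cxcl12 because it is the only measured member with an entry, and Cxcl1 and Cxcl2 as dim members that carry the same kB element. Of the 10 members, 6 matched a RefSeq promoter window of GRCm38.p6, and Ccl2, Ccl5, Ccl7 and Cxcl5 did not. The 250 bases before the start were searched on both strands for the NF-kB site (the kB motif), the full cAMP response element TGACGTCA, its core TGACG, the AP-1 site TGANTCA, the core of the interferon response element and the C/EBP site TTNNGCAA. Capitals mark the matches, and a full cAMP element would also hold the core.
Cxcl12, chr6:117168285-117168534, plus strand: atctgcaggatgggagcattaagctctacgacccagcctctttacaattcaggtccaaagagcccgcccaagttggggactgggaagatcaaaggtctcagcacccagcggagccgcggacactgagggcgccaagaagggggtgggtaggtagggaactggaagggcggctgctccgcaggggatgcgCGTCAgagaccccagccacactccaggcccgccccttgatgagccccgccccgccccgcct
Cxcl1, chr5:90890995-90891244, plus strand: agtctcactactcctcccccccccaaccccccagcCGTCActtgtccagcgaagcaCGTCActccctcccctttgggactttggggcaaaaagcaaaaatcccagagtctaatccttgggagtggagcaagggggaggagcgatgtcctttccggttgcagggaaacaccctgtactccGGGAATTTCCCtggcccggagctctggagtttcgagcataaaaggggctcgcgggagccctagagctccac
Cxcl2, chr5:90903649-90903898, plus strand: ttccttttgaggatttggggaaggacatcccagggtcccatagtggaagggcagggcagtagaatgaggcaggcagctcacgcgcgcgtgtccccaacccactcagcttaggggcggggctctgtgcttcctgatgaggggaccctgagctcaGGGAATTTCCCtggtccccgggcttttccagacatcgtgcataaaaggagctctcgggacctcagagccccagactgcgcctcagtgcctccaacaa
Cxcl1 held GGGAATTTCC at positions -71 to -62 and Cxcl2 the same letters at -97 to -88, each overlapped by a kB match on the opposite strand that starts 1 base later. Cxcl12 held the core TGACG on the minus strand at -61 to -57, and Cxcl1 held it on the minus strand at -215 to -211 and -194 to -190. Over 27025 genes with a window, 7.0% held the kB motif and 17.9% the core TGACG. Ccl20 held a kB match at -80 to -71 and Cxcl14 an interferon response core at -172 to -163, which 3.0% of windows held, while none of the searched letters were in the Cx3cl1 window. These matches describe the letters of the windows only.

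Several of the members have other chemokine genes as neighbours in the RefSeq gene order, whereas Ccl20, Cxcl12 and Cxcl14 have none beside them. In that order Ccl5 is followed by Ccl9, Ccl6, Ccl3 and Ccl4. Ccl9, a monocyte attractant, was measured, at 206.4 with ATCE1-C-del, against 161.5 with empty vector on its brighter probe set, a log2 ratio of 0.35. Its other probe set had 113.1 with ATCE1-C-del, against 68.3 with empty vector, the last under the floor, so it was at least 1.49-fold higher. Ccl6, Ccl3 and Ccl4 were near background, with no signal over 23.8 on either array. In another run Ccl2 is followed by Ccl7, Ccl11, Ccl12, Ccl8 and Ccl1. Of these, Ccl8 (MCP-2) was measured and lower, at 312.5 with ATCE1-C-del, against 375.8 with empty vector (log2 ratio -0.27), while Ccl2 and Ccl7 were slightly higher. Cxcl5 is followed by Ppbp, and Cxcl1 lies between Cxcl15 and Cxcl2. Ppbp and Cxcl15 had no signal over 15.1 on either array. Cx3cl1 lies between Ccl22 and Ccl17, which had no signal over 8.8.

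Of 25 other chemokine family genes on the arrays, 3 were measured, Ccl9, Ccl8 and Cklf, and 0 passed 1.5-fold in either direction. Over all measured genes 0.896% were past 1.5-fold higher and 1.12% lower. On the scale of the hybridisation controls Cklf (log2 ratio 0.82) and Ccl9 (0.60) passed 1.5-fold, both higher. The share of all measured genes that did so on that scale is not given here. Cklf, chemokine-like factor, a membrane protein outside the classical family, was 1.48-fold higher on its brightest probe set, at 243.2 with ATCE1-C-del, against 163.8 with empty vector. Its other measured probe sets lay at log2 ratios of -0.41, -0.06 and 0.07, so they did not share that direction. Of 21 receptor genes, 1 was measured: Ackr3, the scavenging receptor that takes up Cxcl12, at 322.5 with ATCE1-C-del, against 290.8 with empty vector (1.11-fold higher). Ccr1 and Ccr3, receptors of Ccl5, had no signal over 7.7 on either array, and Cxcr4 had 5.7 with ATCE1-C-del, against 3.7 with empty vector.

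Of 11 measured genes among NF-kB factors and their feedback genes, 0 passed 1.5-fold. Over all measured genes 0.896% were past 1.5-fold higher and 1.12% lower. The median was -0.11 in log2 ratio, 4 genes being higher and 7 lower, beside 48.0% and 52.0% of all measured genes. It turned to 0.14, with 7 higher and 4 lower, on the scale of the hybridisation controls, where 86.2% of all measured genes were higher. Birc3 and Nfkbib then passed 1.5-fold higher, at log2 ratios of 0.72 and 0.71. The share of all measured genes that did so on that scale is not given here. Birc3, which blocks apoptosis, was 1.38-fold higher, at 139.6 with ATCE1-C-del, against 100.7 with empty vector. Nfkbib, which encodes an inhibitor of NF-kB, was 1.38-fold higher, at 119.7 with ATCE1-C-del, against 86.8 with empty vector. Nfkbia, the inhibitor that NF-kB itself induces, was 1.36-fold lower, at 1389 with ATCE1-C-del, against 1878 with empty vector, with log2 ratios of -0.34 and -0.29 on its other measured probe sets. Tnip1, a partner of the deubiquitinase A20, was 1.37-fold lower, at 251.3 with ATCE1-C-del, against 344.0 with empty vector. How these values relate to that of Ccl5 was not tested.

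Among the cytokines and inflammatory mediators, 6 of 20 genes were measured, 1 passed 1.5-fold higher and 0 lower, and the median log2 ratio was 0.08, where 0.896% of all measured genes were past 1.5-fold higher and 1.12% lower. The 6 divided into 4 higher and 2 lower, beside 48.0% and 52.0% of all measured genes. On the scale of the hybridisation controls they divided into 6 and 0, beside 86.2% and 13.8%. The gene past 1.5-fold was Ptgs2, cyclooxygenase-2, at 365.4 with ATCE1-C-del, against 221.9 with empty vector on its brighter probe set (1.64-fold higher) and at 303.4 with ATCE1-C-del, against 155.0 with empty vector on the other (1.95-fold higher). Il6, which fibroblasts often induce together with chemokines, had 88.6 with ATCE1-C-del, against 39.6 with empty vector, the last under the floor, and was at least 1.16-fold higher. Tnfsf9, the ligand of a T cell costimulator, was 1.19-fold lower (with a log2 ratio of 0.005 on the scale of the hybridisation controls), at 139.6 with ATCE1-C-del, against 165.0 with empty vector. Csf1, the macrophage growth factor, was lower on its brightest probe set (log2 ratio -0.11) and higher on its other 3 (0.13, 0.30 and 0.37), and on the scale of the hybridisation controls the brightest also lay above 0, at 0.14.

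Among interferon regulatory factors, STATs and nucleic acid sensing genes, 10 of 18 were measured, 1 passed 1.5-fold higher (0.896% of all measured genes did) and 0 lower (1.12%), and the median log2 ratio was -0.03, which turned to 0.215 on the scale of the hybridisation controls. On that scale 8 were higher and 2 lower, beside 86.2% and 13.8% of all measured genes, and in the main processing 4 were higher and 6 lower, beside 48.0% and 52.0%. Sting1, the adaptor for cytosolic DNA, was 1.66-fold higher, at 152.8 with ATCE1-C-del, against 91.9 with empty vector on its only probe set. Irf3, which acts below Sting1 and is known to bind the Ccl5 promoter, was just under 1.5-fold higher on its brightest probe set, at 233.7 with ATCE1-C-del, against 155.6 with empty vector, whereas its other measured probe set read 109.9 with ATCE1-C-del, against 99.3 with empty vector. The brightest passed 1.5-fold with signals as deposited and with quantile, lowess or control scaling. Irf1 had 333.5 with ATCE1-C-del, against 402.6 with empty vector, and Irf9 had 117.2 with ATCE1-C-del, against 139.9 with empty vector. Both cultures had received plasmid DNA, and any link between these genes and Ccl5 was not tested.

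Of 14 measured genes that process or present chemokines, 0 passed 1.5-fold in either direction. Over all measured genes 0.896% were past 1.5-fold higher and 1.12% lower. Their median log2 ratio was 0.04, with 7 above 0 and 7 below, beside 48.0% and 52.0% of all measured genes. Quantile normalization gave 9 above and 5 below. The hybridisation controls gave 13 above and 1 below, beside 86.2% and 13.8% of all measured genes. On that scale Sdc3 passed 1.5-fold higher, and the share of all measured genes that did so is not given here. The sheddase gene Adam10 was 1.23-fold lower on its brightest probe set, the other probe sets lying at -0.03 and 0.07. Of the heparan sulfate proteoglycan genes, Sdc2 lay at log2 ratios of 0.29, -0.04 and 0.13 on its 3 probe sets, and Sdc3 at 0.38 or more on its brightest and -0.25 on its other measured one. The sulfotransferase gene Hs6st1 was 1.25-fold higher, at 96.8 with ATCE1-C-del, against 77.2 with empty vector.

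**Figure D3:**
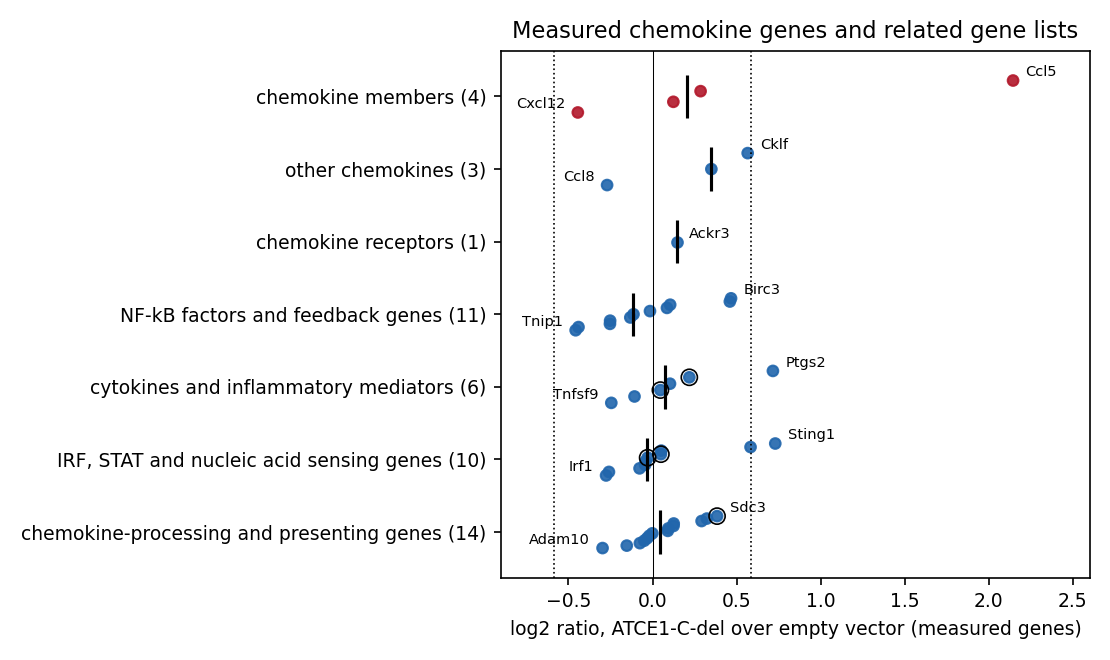
Log2 ratio between the arrays (ATCE1-C-del as numerator) for the measured chemokine members (red) and the measured genes of 6 related lists (blue), 1 probe set a gene, with the number of genes in brackets. Black bars are medians, dotted lines 1.5-fold, and black rings genes under the floor on 1 array; in the main processing only Ccl5, Ptgs2 and Sting1 lie past 1.5-fold.

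By the closeness of the log2 ratio over the 2 arrays, among genes measured on both, the 4 genes nearest to Ccl5 were Gtse1, Atf3, Plaur and E2f4. Gtse1, a microtubule-associated protein, had 200.8 with ATCE1-C-del, against 84.1 with empty vector, a log2 ratio of 1.25. Atf3, a stress-induced bZIP factor, had 187.9 with ATCE1-C-del, against 88.1 with empty vector, a log2 ratio of 1.09. Plaur, the urokinase receptor, had 164.6 with ATCE1-C-del, against 82.2 with empty vector, and E2f4, a repressor of cell cycle genes, 243.8 with ATCE1-C-del, against 122.6 with empty vector. Even the nearest lay 0.89 below Ccl5 on the log2 scale, so no gene matched it closely.

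The cell type was checked with marker genes. All 11 fibroblast markers were measured on both arrays, with summed signals of 39494 with ATCE1-C-del, against 39274 with empty vector. Of 13 leukocyte markers, 11 were measured on neither array, Cd14 on both and Cd68 on the ATCE1-C-del array. The summed signal of all 13 was 404 with ATCE1-C-del, against 296 with empty vector. That sum includes the signals under the floor, so no difference is read from it. Cd14, the marker measured on both arrays, was 1.11-fold higher, at 115.7 with ATCE1-C-del, against 104.1 with empty vector. Ptprc, the pan-leukocyte CD45, had 9.5 with ATCE1-C-del, against 3.0 with empty vector, and Cd3e had 7.0 with ATCE1-C-del, against 4.1 with empty vector, all far under the floor. None of 4 endothelial and 4 epithelial markers was measured. The endothelial sum was 16.7 with ATCE1-C-del, against 37.5 with empty vector, and the epithelial sum 51.4, against 37.8. Creb3l4 itself had 18.0 with ATCE1-C-del, against 20.7 with empty vector, both under the floor, and since it is unknown whether its probes match the truncated insert, it does not check the labels.

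**Figure D4:**
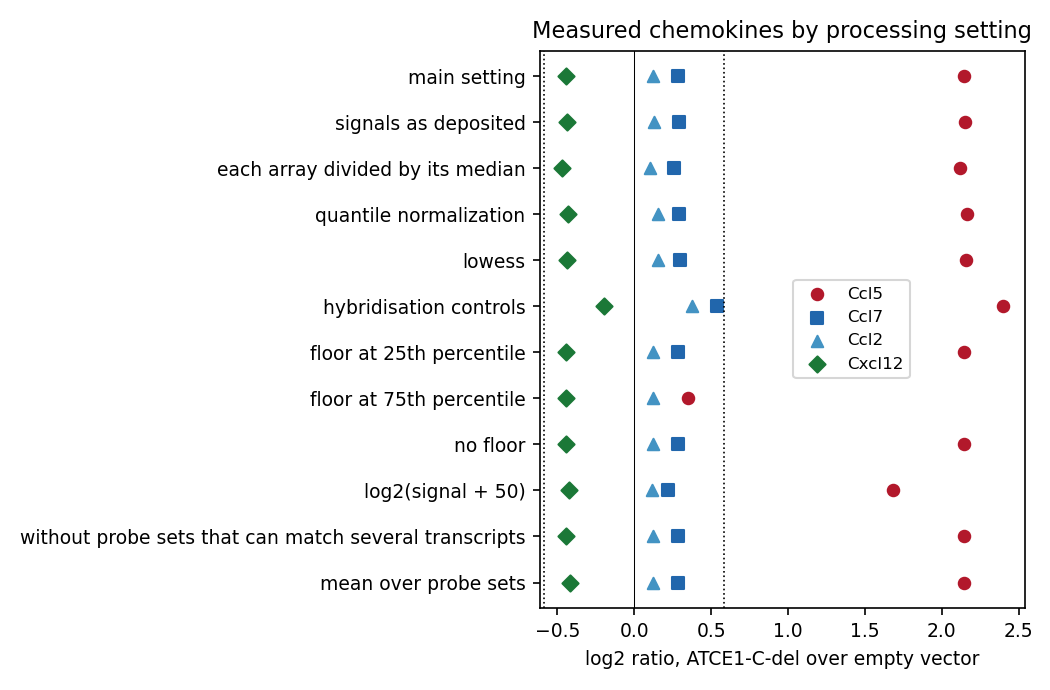
Log2 ratio between the arrays (ATCE1-C-del as numerator) for the 4 measured chemokine genes under the main processing and 11 alternatives, with 1.5-fold as dotted lines. Ccl5 lies between 1.68 and 2.40 except with the floor at the 75th percentile, where it is 0.35 and Ccl7 is not measured; Cxcl12 stays below 0 and Ccl2 above 0 throughout.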

How the data were processed

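The deposited intensity values are MAS5 signals, per the submitters' processing notes, which give no version; no source used here gives the target value, masks or detection calls. Each of the 2 arrays held 22690 probe sets, 64 of them controls, with trimmed means (2% to 98%) of 249.8 for ATCE1-C-del and 249.2 for empty vector. Each array was scaled to a common trimmed mean, signals under the array's median were raised to it, and the log2 ratio was taken. Printed signals are as deposited. A gene was represented by the probe set whose mean log2 signal was highest. Where 1 array was under the floor, the fold is given as "at least". With 1 array per group, genes were counted at 1.5-fold and 2-fold and nothing was tested.

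Names came from the platform's annotation table, where 20393 probe sets had 1 symbol, 691 had several and 1606 had no entry. Neighbours and promoter windows came from RefSeq tables of GRCm38.p6, neighbours used for gene order only. The members and lists were chosen with earlier results of these data known. Named were all members, up to 4 measured genes per list with the largest absolute ratio, the 4 genes nearest to Ccl5, and Creb3l4; Tcl1b3, Ccr1, Ccr3, Cxcr4, Cxcl9, Cxcl10, Cxcl11, Cxcl16, the markers and the chemokine neighbours were named after their values were seen. The ratio procedure was run on simulated data with changes placed only in bright probe sets, so recovery of a change near the floor was not checked. Python 3.11.15, numpy 2.4.6, pandas 2.3.3, statsmodels 0.14.6 and matplotlib 3.10.9 were used.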

Additional observations from a re-analysis of the deposited data

How the results depend on the processing

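The number of arrays limits every value, and closeness to background limits the dim ones, among them the empty vector signal of Ccl5. Under 11 alternatives the Ccl5 log2 ratio ran from 0.35 to 2.395, always above 0: it was 2.395 with scaling to the hybridisation controls, 1.68 on the log2(signal + 50) scale and 0.35 with the floor at the 75th percentile, where 0 chemokine genes were 1.5-fold or 2-fold higher. That floor lies above the empty vector signal of Ccl5 and so caps its ratio. The median of the chemokine genes, 0.205 in the main processing, was 0.455 with the controls, 0.082 with the floor at the 25th percentile and 0.124 at the 75th. With the floor at the 25th percentile 10 chemokine probe sets were measured, against 5. In the related lists 2 genes were 1.5-fold higher and 0 lower in the main processing, where 0.896% and 1.12% of all measured genes were. The higher count was 8 with the hybridisation controls, 17 with the floor at the 25th percentile, 0 at the 75th and 4 with no floor. The lower count was 2 at the 25th. The shares of all measured genes past 1.5-fold under these settings are not given here, so these counts are not results about the lists. At 2-fold, 4 of all measured genes were higher in the main processing and 14 with the hybridisation controls. With the floor at the 25th percentile 259 of 9949 were, 1 of 3690 at the 75th and 19 with no floor. The 2-fold lower count over all measured genes was 2 in the main processing and 37 at the 25th. No paired analysis was possible because there was 1 array per group, and no array could be left out.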

Other observations

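Some chemokine probe sets outside the members were under the floor on both arrays and were singled out after their values were seen. Cxcl10 (IP-10), an interferon-inducible attractant of Cxcr3-bearing T cells, had 57.2 with ATCE1-C-del, against 13.4 with empty vector. Of 1679 other probe sets as dim, 2 were at least as far apart with the higher signal on the ATCE1-C-del array and 2 with the lower. All of these lay under the floor on both arrays. Probe sets that rose above it on either array were left out, and the brightest of those kept could not differ as far. These counts are therefore for scale only. The floor keeps Cxcl10 out of the counts, and its single probe set gives no check from another. Cxcl16, a membrane-bound ligand of Cxcr6, had 36.8 with ATCE1-C-del, against 14.5 with empty vector on its brighter probe set. It was not set beside equally dim probe sets. Other dim chemokine probe sets went either way: Cxcl15 had 15.1 with ATCE1-C-del, against 3.1 with empty vector, whereas Ccl3 had 0.8, against 7.4. Cxcl9 and Cxcl11, which share the receptor of Cxcl10, had no signal over 9.0 on either array.

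Among 30 dim probe sets of the other chemokine family genes, 20 had the higher signal with ATCE1-C-del and 9 the lower, and among 28 of the receptors 22 were higher and 5 lower. Over all 10995 probe sets under both floors, 59.6% were higher with ATCE1-C-del.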
